A study of Mus musculus with 4 samples.

Results

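Rab proteins are small GTPases that sit on the membranes of the Golgi, the endosomes and transport vesicles and decide which compartment a vesicle reaches. In the GTP-bound form a Rab recruits effectors such as tethers and motor proteins, and in the GDP-bound form it is taken off the membrane by a GDP dissociation inhibitor (GDI). Exchange factors load the GTP, GTPase-activating proteins end the signal, and a lipid group added to the tail of the protein anchors it in the membrane. In T cells this traffic carries receptors to the synapse with an antigen-presenting cell and cytokines to the surface.

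The members described here are the genes whose symbol is Rab followed by a number, with or without a trailing letter, and that are listed in the tables of all 4 libraries. There were 52 such genes among 14469 genes listed in all 4 libraries and 17478 listed in at least 1. The family was chosen because Rab6b, a Golgi Rab, was nearly absent in the knockout, so the values of Rab6b are given as a description with no test. The remaining members were taken by name and by being listed. Of 57 Rab symbols, 5 (Rab3b, Rab9b, Rab38, Rab40b and Rab44) were missing from at least 1 table. Just inside that limit, Rab27b had 0.04, 0.04, 0.02 and 0.01 FPKM (fragments scaled to transcript length and to depth), and just outside it, Rab9b had 0.03, 0.04 and 0.05 FPKM and was not listed in the second knockout library.

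RNA was sequenced from C57BL/6 mice aged 6 to 8 weeks, with 2 wild-type libraries and 2 libraries labelled BFAR-/-, in which the deficiency of Bfar is conditional on T cells. Naive CD4+CD44loCD62Lhi T cells were sorted from spleen and lymph nodes, activated with anti-CD3 and anti-CD28, and kept in Th9 conditions for 3 days in both genotypes. Th9 cells make interleukin 9, and Bfar encodes a ubiquitin ligase of the endoplasmic reticulum membrane. The labels name neither the promoter of the recombinase nor the exons removed. They also leave unsaid whether the 2 libraries of a genotype are from different animals, so the p-values reflect the spread of these libraries alone, and that spread may be technical.

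The libraries held 19058009 to 19782923 expected counts, so 3 counts correspond to 0.152 to 0.157 CPM, the count scaled to the depth of its library. Bfar itself had 36.4 and 32.9 CPM in wild-type cells and 8.45 and 7.79 CPM in knockout cells, which goes with the labels; its log2 fold change, -2.09 ± 0.09 (SE), passed with an edgeR adjusted p of 5.38e-10. Cd4 lay between 581.3 and 702.3 CPM, and Il9 was at 536.7 and 505.0 CPM in the wild type and 237.9 and 270.2 CPM in the knockout. Of 6 CD4 T cell markers, 4 were called higher in the knockout and Il9 was called lower. Markers of other cells were low: their summed level was at most 11.6 CPM for CD8 T cells, 4.32 to 5.31 for B cells, 3.00 to 5.16 for myeloid and dendritic cells, 0.053 to 0.252 for natural killer cells, 0.81 to 1.40 for platelets and erythroid cells, and 3.44 to 5.13 for neurons, and none of 3 mast cell markers was listed. Many of these other-cell markers were not listed or were too low to be tested, and edgeR called none of the tested ones. Their lowest edgeR adjusted p were 0.0623 for Cd79b and 0.0726 for Itgax, both lower in the knockout, and 0.0919 for Cd79a, which was higher. The part of the T cell markers in the Rab differences was not tested, and fewer cells of a type and less RNA per cell cannot be told apart in these bulk libraries.

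The first question was how much of the Rab6 pair was left. Rab6a and Rab6b encode close paralogs that act in transport within the Golgi and back to the endoplasmic reticulum, and Rab6b is known from the brain. Rab6b lies at chr9:103111667-103185276 and Rab6a at chr7:100607575-100641268 (GRCm38). Their coding sequences (RefSeq transcripts NM_173781 and NM_024287, read through the GENCODE transcripts of GRCm38) have 624 bases each in 8 coding exons of equal lengths, and 489 bases (78.4%) are identical. Identity by exon ran from 68.7% in coding exon 7 to 84.3% in coding exon 1. The first and the last coding exon are shown because they are the most alike exon and the one that encodes the tail with the lipid anchor; capitals mark the bases that differ between the paralogs, 11 of 70 in the first exon and 12 of 62 in the last.
Rab6a, coding exon 1, chr7:100608224-100608293, plus strand: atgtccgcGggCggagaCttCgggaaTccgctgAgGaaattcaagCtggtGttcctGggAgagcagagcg
Rab6b, coding exon 1, chr9:103112157-103112226, plus strand: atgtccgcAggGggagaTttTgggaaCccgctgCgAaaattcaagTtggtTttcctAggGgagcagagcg
Rab6a, coding exon 8, chr7:100639255-100639316, plus strand: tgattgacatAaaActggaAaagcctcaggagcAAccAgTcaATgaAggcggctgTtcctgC
Rab6b, coding exon 8, chr9:103181182-103181243, plus strand: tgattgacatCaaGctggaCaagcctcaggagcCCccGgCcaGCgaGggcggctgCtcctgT
The longest run of bases that both coding sequences hold is 14 bases, ttcatgtatgacag, at coding positions 97 to 110 counted from the start codon, and they share 0 stretches of 31 bases. The estimated counts, which turn fractional where reads are split between genes, were whole within 0.005 in 4 of 4 libraries for Rab6b and in 3 of 4 for Rab6a.

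Rab6b had expected counts of 250 and 236 in wild-type cells and 18 and 17 in knockout cells. Its level was 2.64 and 2.50 FPKM against 0.19 and 0.19 FPKM, and the mean of 12.3 CPM in the wild type was 13.4 times that of 0.914 CPM in the knockout. Both knockout libraries thus kept a few counts, above the limit of 3 counts. The nearest tested gene on each side of Rab6b on chromosome 9 was not called different: Srprb, 2.8 kb downstream, had a log2 difference of -0.04 ± 0.05 (adjusted p = 0.611, edgeR), and Ryk, 203.4 kb upstream, one of -0.14 ± 0.08 (adjusted p = 0.194, edgeR). Trf, the next tested gene downstream at 23.6 kb, was low and was not called either (adjusted p = 0.895, edgeR).

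Rab6a, the main Rab6 gene in these cells, was slightly higher in the knockout. Its level was 37.79 and 38.29 FPKM in wild-type cells and 41.01 and 41.64 FPKM in knockout cells, and the groups did not overlap. The log2 fold change of its CPM was 0.12 ± 0.04 (SE, 95% interval 0.04 to 0.21), and its edgeR adjusted p was 0.0329. This call was lost under DESeq2 (adjusted p = 0.210), with no filter on low counts (0.0701), on both log2 FPKM scales (0.0660 and 0.0653) and without any 1 of the 4 libraries (0.0894 to 0.176), with the log2 fold change between 0.11 and 0.14.

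Rab6a and Rab6b together gave 40.43 and 40.79 FPKM in the wild type and 41.20 and 41.83 FPKM in the knockout. The share of Rab6b in that sum was 6.53% and 6.13% in the wild type and 0.461% and 0.454% in the knockout. On the FPKM scale the mean of Rab6a was 3.285 higher in the knockout and that of Rab6b was 2.38 lower (the difference is -2.38), leaving the sum 0.905 higher: 40.61 ± 0.255 in the wild type and 41.51 ± 0.445 in the knockout (SD, n = 2). In summed CPM the libraries had 135.7 and 136.8 in the wild type and 134.9 and 137.2 in the knockout, so there the genotypes overlapped. With 2 libraries a group the sum was not tested.

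**Figure D1:**
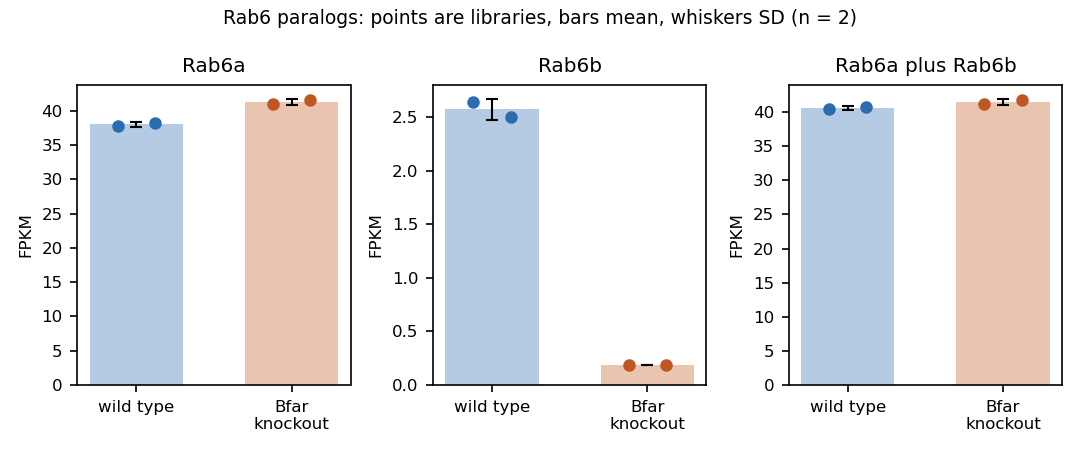
Level of Rab6a, Rab6b and their sum in FPKM (vertical axes, each from 0 and with its own scale) in the 2 wild-type and 2 Bfar knockout libraries; points are libraries, bars means and whiskers the SD. Rab6b is at 2.64 and 2.50 in the wild type and 0.19 in both knockout libraries. The sum is at 40.43 and 40.79 in the wild type and at 41.20 and 41.83 in the knockout.

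The next question was whether other Rabs shift. Besides Rab6b, 44 members passed the filter on low counts and 7 did not (Rab3c, Rab13, Rab15, Rab25, Rab27b, Rab30 and Rab42, each at or below 0.52 FPKM in every library). edgeR called 9 of the 44 different (20.5%), against a background of 26.8% of all 12677 tested genes: 7 members were higher in the knockout (15.9%, background 13.6%) and 2 were lower (4.5%, background 13.2%). The share called higher was near the background and the share called lower was below it; neither difference was tested. Without adjustment, 11 of the 44 (25%) had p below 0.05, against 37.7% of all tested genes. The libraries of the 2 genotypes did not overlap for 28 members (63.6%, background 63.5%), with the knockout above for 16 (background 31.6%) and below for 12 (background 31.9%). Both the count of members and the background changed with the fit: DESeq2 called 2 of 43 members (background 12.7%), edgeR with no filter on low counts 5 of 51 (11.1%), edgeR on genes averaging 1 CPM or more 10 of 42 (28.7%), and limma 7 of 44 on log2(FPKM + 0.1) (18.6%) and 7 of 44 on log2(FPKM + 1) (19.0%). With 1 library left out, edgeR called 5 of 45 members without the first wild-type library (background 16.5%), 3 of 44 without the second (18.1%), 2 of 45 without the first knockout library (14.6%) and 3 of 45 without the second (11.1%). The median log2 fold change was 0.04 over these members and -0.002 over all tested genes, and the median size of the change was 0.119 and 0.137. No tested member other than Rab6b reached a log2 change of 1 in either direction; they ran from -0.86 for Rab20 to 0.97 for Rab39.

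**Figure D2:**
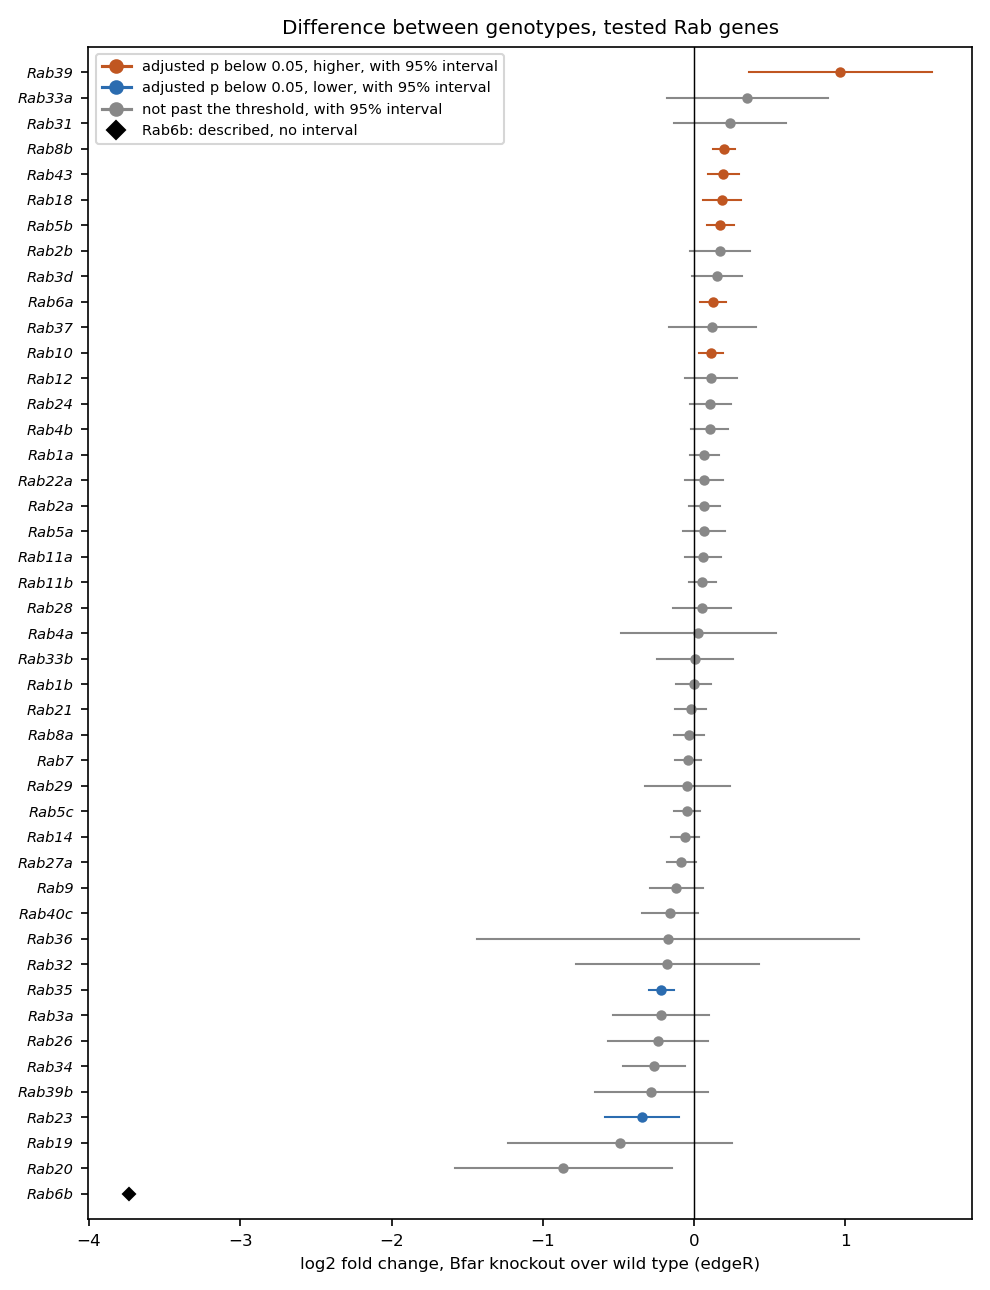
Log2 fold change of CPM, knockout over wild type (horizontal axis), for the 45 Rab genes that passed the filter, with 95% intervals that are not adjusted for the number of genes. The 7 members called higher and 2 called lower are coloured, and Rab6b, at -3.74, is shown with no interval because it was the reason for choosing the family.

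Calls for 2 members held in all 12 other fits that were tried, apart from the test against a minimum fold. Rab8b, which carries vesicles from the trans-Golgi to the cell surface, had 460.8 and 456.0 CPM in the wild type and 524.2 and 525.1 CPM in the knockout. Its log2 fold change was 0.19 ± 0.03 (edgeR adjusted p = 7.10e-04; 3.83e-05 to 0.0254 in the other fits). Rab35, a Rab of the fast recycling route that returns receptors to the surface, had 157.9 and 158.5 CPM in the wild type and 136.0 and 136.3 CPM in the knockout. It fell, with a log2 difference of -0.22 ± 0.04 (adjusted p = 8.65e-04, edgeR; 1.07e-04 to 0.0299 in the other fits). In both genes the groups did not overlap, and the knockout mean was 1.14 times that of the wild type for Rab8b and 0.86 times for Rab35. The closeness of 2 libraries of a genotype does not measure the spread between replicates. Estimated counts were whole within 0.005 in 4 of 4 libraries for Rab35 and in 0 of 4 for Rab8b. Rab8b shared 0.71% of its 31-base stretches with other listed genes.

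Rab5b, one of 3 Rab5 genes that drive fusion of early endosomes, rose from 104.6 and 104.9 CPM to 119.6 and 116.7 CPM. Its log2 fold change was 0.17 ± 0.04 (edgeR adjusted p = 0.00617), and the call was lost under DESeq2 (0.0649) and without the first knockout library (0.0663). Rab43, a Rab of the endoplasmic reticulum and Golgi, rose from 61.4 and 60.3 CPM to 69.0 and 70.0 CPM. Its log2 fold change was 0.19 ± 0.05 (edgeR adjusted p = 0.00776). That call was lost under DESeq2 (0.120), without the second wild-type library (0.0667) and without the first (0.0506) or the second (0.0778) knockout library. Neither gene had overlapping groups.

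Rab39 had the largest rise on the log2 scale and a low level. It had 20 and 18 counts in wild-type cells and 35 and 37 in knockout cells, or 0.34, 0.31, 0.61 and 0.65 FPKM. The log2 fold change was 0.97 ± 0.28 (edgeR adjusted p = 0.0201). DESeq2 did not call it (0.271), nor did any fit with 1 library left out (0.0721 to 0.128), with log2 fold changes of 0.89 to 1.04 there. On log2(FPKM + 1), which damps low levels, the difference was 0.30.

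Rab18, which works at the endoplasmic reticulum and lipid droplets, had 60.4 and 53.3 CPM in the wild type and 63.2 and 65.9 CPM in the knockout. The 2 wild-type values differed more than the distance from the higher of them to the knockout. Its log2 fold change was 0.18 ± 0.06 (edgeR adjusted p = 0.0327), and it depended on the wild-type library: 0.10 (adjusted p = 0.354) without the second and 0.28 (0.0109) without the first. Without the first or the second knockout library the adjusted p was 0.126 and 0.263, and under DESeq2 it was 0.212. With no filter and on both FPKM scales Rab18 was not called.

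Rab10, a Rab of secretory vesicles, had 227.9 and 223.3 CPM in the wild type and 246.2 and 241.5 CPM in the knockout. Its log2 fold change was 0.11 ± 0.04 (edgeR adjusted p = 0.0381). Rab23, known as an inhibitor of Hedgehog signalling, had 2.53 and 2.41 FPKM in the wild type and 2.05 and 1.82 FPKM in the knockout, with a log2 difference of -0.34 ± 0.11 (adjusted p = 0.0365, edgeR). Both calls were lost under DESeq2 (0.1455 for Rab10, 0.329 for Rab23) and without any 1 of the 4 libraries (0.0995 to 0.203 for Rab10, 0.0630 to 0.213 for Rab23). Neither gene was called with no filter or on the FPKM scales. Just past the threshold on the other side were Rab34 (log2 fold change -0.27, edgeR adjusted p = 0.0503) and Rab20 (-0.86, 0.0712; counts of 25, 26, 15 and 12), which are named because their values were seen to be close to it. Rab34 was called among genes averaging 1 CPM or more (0.0494) and on log2(FPKM + 0.1) and log2(FPKM + 1) (0.0416 and 0.0433), and Rab20 on both log2 FPKM scales (0.0168 and 0.0118).

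**Figure D3:**
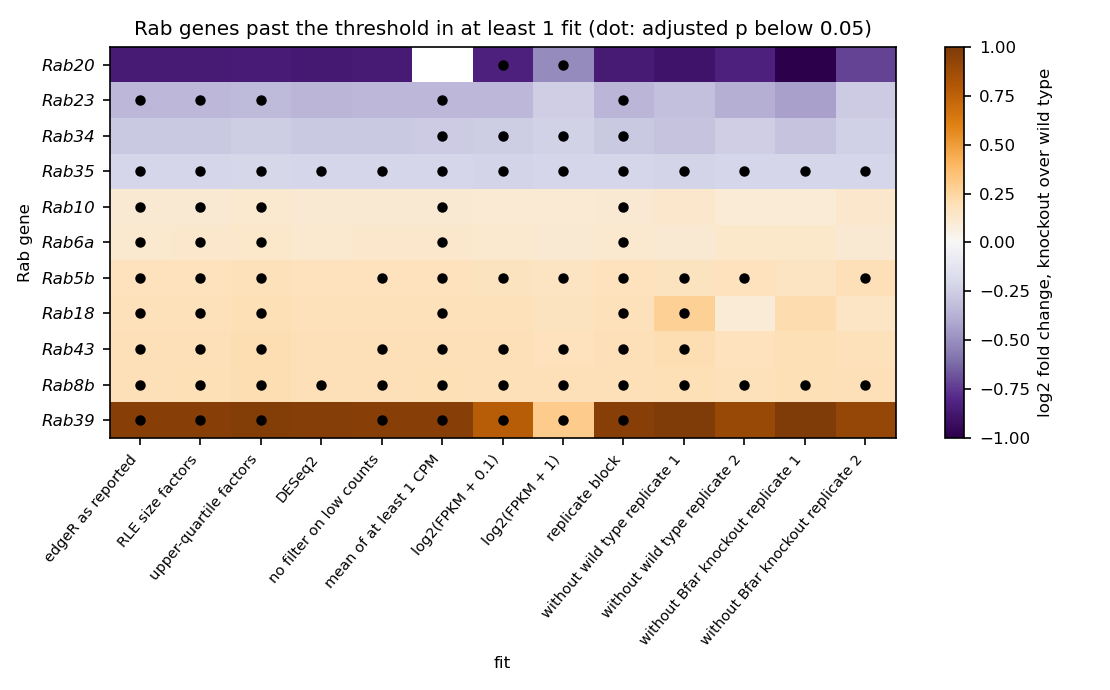
Log2 fold change (colour, cut at -1 and 1) of the 11 Rab genes past the threshold in at least 1 fit (rows). Columns are the reported edgeR fit and 12 alternatives. A dot marks adjusted p below 0.05. A white cell marks a gene that was not tested, and tested cells with small changes are nearly white too. Rab35 and Rab8b have a dot in every column, and Rab6a, Rab10 and Rab23 in 5 columns each.

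Each Rab was assigned a compartment from a fixed list, and the counts by compartment depend on that placement. With Rab6b left out, the Rabs of the Golgi and endoplasmic reticulum had 4 of 14 tested members called higher (28.6%, background 13.6%). These were Rab6a, Rab18, Rab39 and Rab43, and none was called lower (background 13.2%). In either direction the share was 28.6% against a background of 26.8%, and these differences were not tested. The abundant members of that group, Rab1b and Rab1a, which carry vesicles from the endoplasmic reticulum to the Golgi, were not called different. Rab1b had 65.25 and 60.55 FPKM in the wild type and 66.14 and 58.93 in the knockout, with a log2 fold change of -0.00 (95% interval -0.12 to 0.11). Rab1a had 44.70 and 42.64 FPKM against 46.94 and 44.26, with a log2 fold change of 0.07 (interval -0.03 to 0.16). In both genes the genotypes overlapped.

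Among Rabs of early and recycling endosomes, 1 of 13 tested members was called higher (Rab5b) and 1 lower (Rab35), or 15.4% against the background of 26.8%. Rab5c, the most abundant of them, had 84.96 and 86.33 FPKM in the wild type and 84.23 and 80.86 in the knockout, with a log2 fold change of -0.05 (interval -0.13 to 0.04), and was not called. Among Rabs of late endosomes and lysosomes, edgeR called 0 of 5 tested members (background 26.8%), 0 had an unadjusted p below 0.05 (37.7% of all genes), and neither DESeq2 nor limma on log2 FPKM called any; 5 genes are too few to set against these shares. Rab7, which directs fusion with lysosomes, was the most abundant Rab of all at 135.0 and 127.6 FPKM in the wild type and 130.6 and 123.6 in the knockout; its log2 fold change was -0.04 (interval -0.13 to 0.05). Rab9, which serves transport from late endosomes to the Golgi, had 13.59 and 13.41 FPKM against 12.29 and 12.50, with a log2 fold change of -0.12 (interval -0.29 to 0.06). A gene that is not called is not shown to be equal, but for Rab7 a change beyond 0.13 in either direction lies outside the interval.

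Rabs of secretion and transport to the surface had 2 of 8 tested members called higher (Rab8b, Rab10; 25%, background 13.6%) and none lower (background 13.2%). In either direction the background was 26.8%. In the mixed remainder, 1 of 4 was called lower (Rab23; 25%, background 13.2% lower and 26.8% in either direction). Rab24, known from autophagy, had 22.47 and 20.94 FPKM against 22.40 and 24.20, and Rab28 had 9.96 and 10.64 against 10.03 and 10.46. Neither of these 2 was called, and both had overlapping FPKM values. In CPM the Rab28 groups did not overlap, with the knockout above the wild type. The listed length of Rab28, which enters its FPKM, varied between libraries by 11.19% of its mean.

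**Figure D4:**
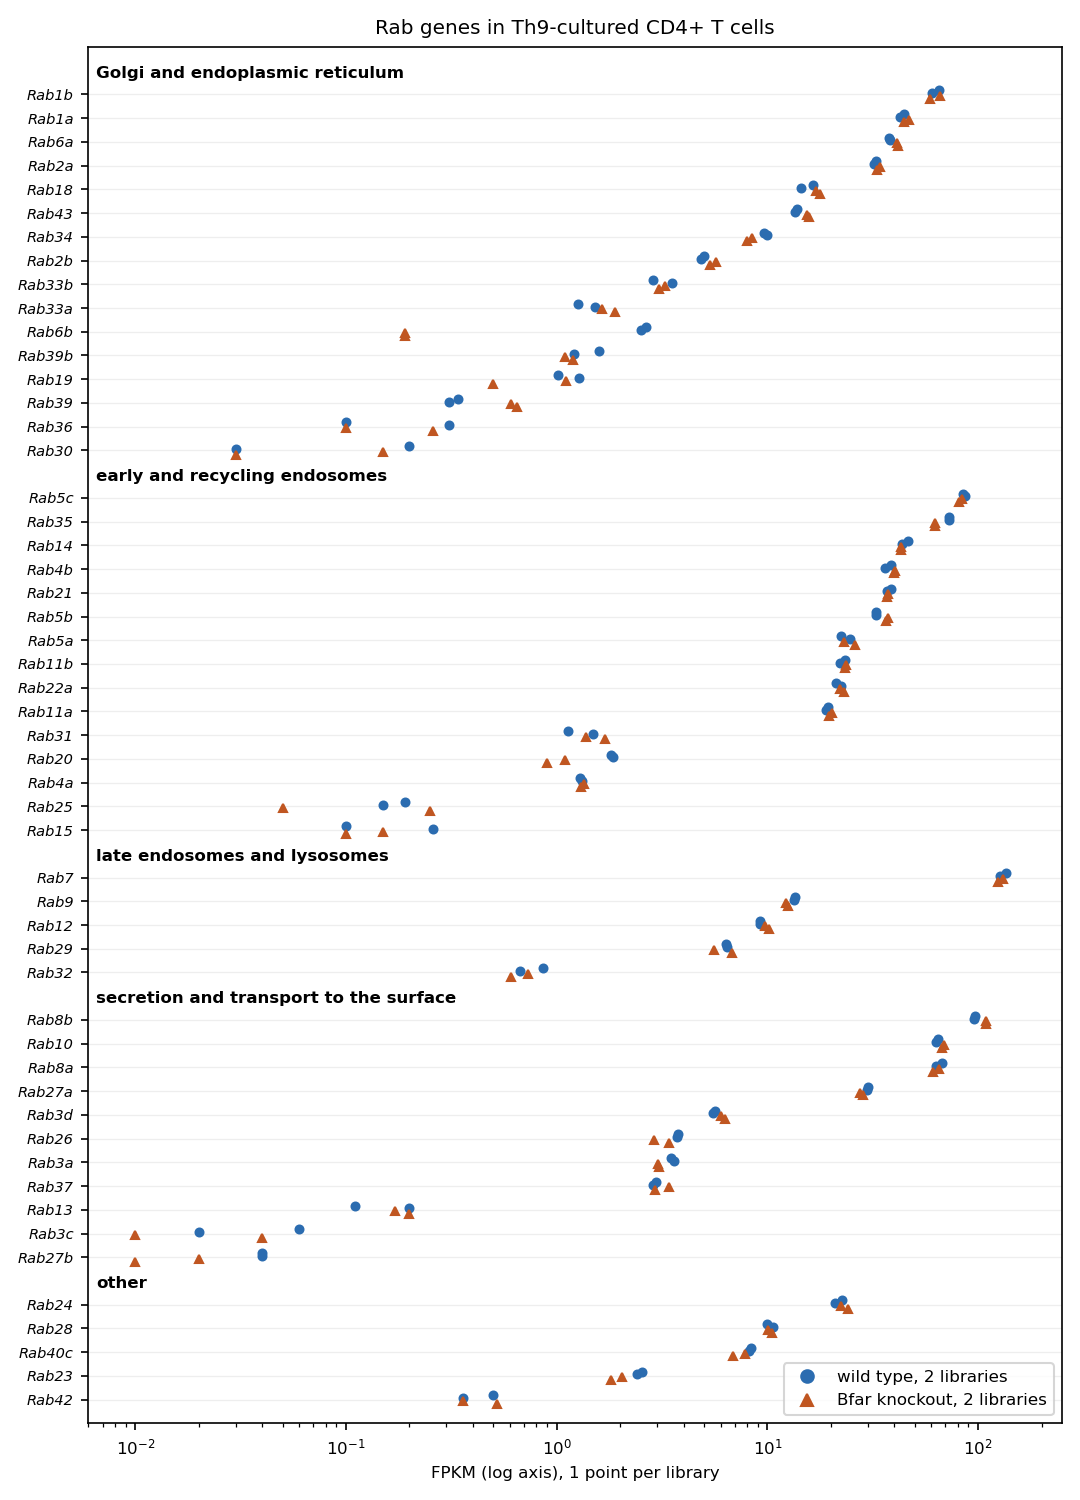
Level of all 52 Rab genes in FPKM (horizontal log axis), grouped by compartment and ordered by mean level, with 1 point per library. For most genes the 4 points lie together, from below 0.1 FPKM for Rab27b and Rab3c to 135.0 for Rab7. Rab6b, the reason for choosing the family, is the gene whose genotypes stand farthest apart.

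Summed over the 52 members, the level was 1122.8 and 1095.8 FPKM in the wild type and 1129.1 and 1108.7 FPKM in the knockout, so the genotypes overlapped. The 5 most abundant members held 40.0% to 40.7% of that sum in each library. Rab7, Rab8b and Rab5c led in every library.

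Grouped by the number in the symbol, closely related Rabs differed in how they shared their level; these groups were formed after the values were seen, and the shares are a description. Rab8b held 58.9% and 60.0% of the Rab8 pair in the wild type and 62.5% and 64.0% in the knockout, with Rab8a, its partner in transport to the surface, at 67.28 and 63.32 against 65.51 and 61.36 FPKM. Rab5b held 23.4% and 22.8% of the 3 Rab5 genes in the wild type and 25.8% and 25.4% in the knockout, while the Rab5 sum was 140.1 and 143.9 FPKM against 144.7 and 143.3. In the Rab39 pair, Rab39 held 17.6% and 20.4% in the wild type and 35.7% and 35.1% in the knockout. By contrast, Rab11a held 45.5% to 46.3% of the Rab11 pair in all 4 libraries, and Rab4b, a Rab of recycling endosomes, held 96.5% to 96.9% of the Rab4 pair. Loss of nearly all of a minor paralog was seen in the Rab6 pair, as the choice of the family by Rab6b fixed in advance. In the Rab27 pair the minor gene Rab27b was near the detection limit in every library, at 0.01 to 0.04 FPKM.

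Genes that act on Rab proteins were read from 6 lists, 148 tested genes in all when each is counted once. Of these, edgeR called 27 higher (18.2%, background 13.6%) and 8 lower (5.4%, background 13.2%). In either direction 23.6% were called, against 26.8% of all genes, and the median log2 fold change was 0.03. Among all tested genes averaging at least 10 CPM the called share was 32.5% (15.7% called higher, 16.8% called lower). The lists were not split by level. The excess of higher over lower calls was not tested. Of the 35 called, 11 were called in all 12 other fits. Among those 11 were Als2cl, Appl2, Dennd4b, Fyco1, Mlph, Rufy1, Tbc1d10a, Tbc1d23, Tbc1d4 and Tbc1d9b.

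On the activating side, 10 of 38 tested exchange factors outside the TRAPP complex were called higher (26.3%, background 13.6%) and none lower (background 13.2%). In either direction the share was 26.3% against a background of 26.8%, and the median log2 fold change was 0.04. The count of 10 depended on the fit. It was 2 under DESeq2 (background 12.7% in either direction), 2 with no filter (11.1%) and 2 on each FPKM scale (18.6% and 19.0%). Als2cl, related to a Rab5 exchange factor, rose from 55.1 and 54.5 CPM to 67.6 and 70.5 CPM, a log2 difference of 0.33 ± 0.05 (adjusted p = 1.68e-04, edgeR). Dennd4b, a DENN-domain exchange factor, rose from 125.6 and 122.2 CPM to 141.9 and 142.8 CPM. Rgp1 and Ric1 form the exchange factor of Rab6. Rgp1 was called higher (0.20 ± 0.05, edgeR adjusted p = 0.0116), a call lost under DESeq2, with no filter, on both FPKM scales, and without the second wild-type (0.148) or the first knockout library (0.186), while Ric1 had a log2 difference of -0.11 (adjusted p = 0.126, edgeR). Among 14 tested subunits of TRAPP, a tether complex that activates Rab1, 1 was called higher and none lower (7.1% called, background 26.8%; median 0.005). That was Trappc6a, at 48.5 and 44.8 CPM against 54.9 and 56.4 CPM, whose call was lost under DESeq2 and without the second wild-type (0.0597) or the second knockout library (0.0775).

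The inactivating side was read from a list of GTPase-activating proteins and TBC-domain relatives, not checked for activity gene by gene. Of its 38 tested members, 8 were called higher (21.1%, background 13.6%) and 1 lower (2.6%, background 13.2%). In either direction 23.7% were called against a background of 26.8%, and the median log2 fold change was 0.03. The number called in either direction was 4 under DESeq2, 4 with no filter and 5 on each FPKM scale. Tbc1d9b rose from 94.8 and 98.8 CPM to 118.6 and 127.4 CPM, with a log2 fold change of 0.35 ± 0.05. Tbc1d4, which acts on Rab8 and Rab10 in glucose transporter traffic, fell from 163.9 and 169.9 CPM to 142.5 and 136.4 CPM, a log2 fold change of -0.26 ± 0.04. Tbc1d23, a protein of the Golgi that is on the list for its TBC domain and not for a known activity on a Rab, rose. It had 29.1 and 30.2 CPM in the wild type and 38.7 and 38.8 CPM in the knockout. Of 7 genes for prenylation and for the GDI, 2 were called higher (28.6%, background 13.6%) and none lower (background 13.2%). In either direction the background was 26.8%, and the median log2 fold change of these genes was 0.07. Chm, the escort protein that presents Rabs for prenylation, rose, with a log2 difference of 0.18 (adjusted p = 0.0140, edgeR), a call held in 1 of 4 fits with a library left out, the one without the second wild-type library (0.0485), and lost in the other 3 (0.0610 to 0.111). The Chm call was also lost under DESeq2, with no filter and on both FPKM scales.

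Among 12 tested effectors of Rab6, 1 was called higher and 1 lower (16.7% called, background 26.8%; median 0.01). Tmf1, a Golgi tether that binds Rab6, rose from 57.1 and 61.8 CPM to 66.6 and 72.3 CPM (0.22 ± 0.06, edgeR adjusted p = 0.00841). Kif20a, a kinesin that binds Rab6 and also acts in cell division, fell from 131.8 and 129.6 CPM to 119.7 and 116.3 CPM (-0.15 ± 0.04, edgeR adjusted p = 0.0153). The Tmf1 call was lost without the first wild-type (0.1175) or the second knockout library (0.158), the Kif20a call without any 1 of the 4 (0.0544 to 0.129), and both under DESeq2 and with no filter. On both FPKM scales the Tmf1 call was lost as well. Dynlrb1, a dynein light chain, had 190.7 and 207.1 CPM against 185.3 and 185.7 CPM and was not called (edgeR adjusted p = 0.106).

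The effectors of other Rabs held the widest differences of the 6 lists, with 5 of 39 called higher and 6 lower (28.2% called, background 26.8%; median -0.01). Mlph, melanophilin, which links Rab27a to a myosin motor, rose from 2.57 and 2.02 CPM to 7.52 and 7.58 CPM, a log2 fold change of 1.71 ± 0.17. Rab27a itself had 29.91 and 29.65 FPKM in the wild type and 27.39 and 28.45 FPKM in the knockout and was not called (log2 fold change -0.08, edgeR adjusted p = 0.179). Fyco1, which couples Rab7 on late endosomes to a kinesin, rose from 32.0 and 32.7 CPM to 54.89 and 49.97 CPM, a log2 fold change of 0.70 ± 0.06, while Rab7 was not called. Rufy1, an effector of Rab4 on early endosomes, fell from 20.6 and 19.8 CPM to 15.1 and 13.9 CPM, a log2 fold change of -0.48 ± 0.09.

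**Figure D5:**
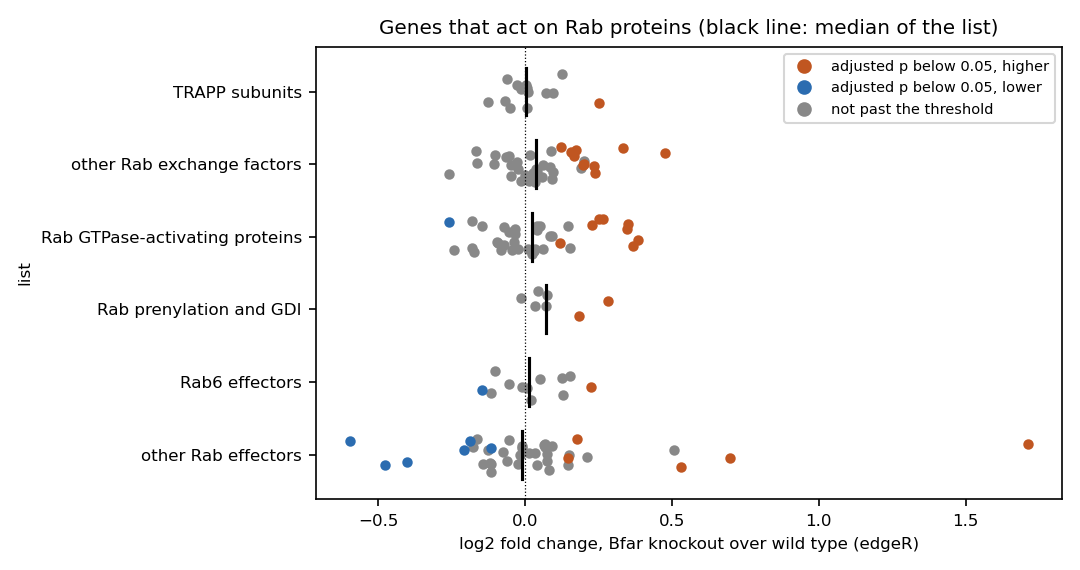
Log2 fold change of CPM, knockout over wild type (horizontal axis), of each tested gene in the 6 lists of genes that act on Rab proteins, with colour for adjusted p below 0.05 and a black line at each list's median. The medians lie between -0.01 and 0.07, and Mlph, at 1.71, is the gene farthest to the right.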

How the data were processed

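RNA of 4 libraries was analysed from 1 table each. Per the submitters' processing notes, Bowtie, RSEM and the build GRCm38 (mm10) were used; no version, annotation release or strand setting is named there. The deposited tables give an expected count per gene (RSEM divides reads that fit several transcripts), an FPKM value made by the authors from length and depth, and a length. Genes absent from a table count as 0 in that library, and the lowest FPKM listed was 0.01.

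Rounded expected counts went into edgeR 4.0.16 (R 4.3.3; glmQLFit and glmQLFTest, two-sided) with genotype as the only term and TMM factors of 0.997 to 1.002. Genes passed filterByExpr at a count of 10 and a total of 15, and Benjamini-Hochberg adjustment ran over 12677 genes, with a threshold of 0.05. The common coefficient of biological variation was 2.89%. The standard error is the absolute log2 fold change divided by the square root of F, and CPM uses TMM-scaled depth. No 2 libraries were duplicates (chi-square per degree of freedom 2.15 and 2.47 within genotypes, 13.42 to 16.57 across). FPKM alternatives used limma 3.58.1 on log2(FPKM + 0.1) and log2(FPKM + 1). DESeq2 1.42.0, other size factors, other filters, a test against a fold of 1.2, a replicate block and leaving out each library were also tried. Fits were tested on counts simulated from the real means and depths, with few genes changed. At a fold of 1.2, edgeR recovered 33 of 67 changed genes (49%) and DESeq2 21 of 67 (31%). Because few genes were changed there, these shares need not hold in the real data.

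The members and lists were chosen with earlier results of these data known. Named are the members past the threshold, the 2 most abundant members of each compartment, up to 3 genes a list by adjusted p, the neighbours of Rab6b; other names were chosen after values were seen. A result that this rule would name is not reported here. Of the members, 38 have 1 transcript listed and 14 have more, and the listed length varied by over 1% between libraries for 5. No member shared 20% or more of its 31-base stretches with another listed gene. Gene coordinates are those of RefSeq on GRCm38.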

Additional observations from a re-analysis of the deposited data

How the results depend on the processing

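Of the Rab members besides Rab6b, edgeR called 9 different, and the count was 9 with other size factors, 10 for genes averaging at least 1 CPM, and 7 on both FPKM scales. DESeq2 called 2 (Rab35 and Rab8b), edgeR with no filter on low counts 5, and fits with 1 library left out 2 to 5. Against a fold of at least 1.2 (edgeR glmTreat) 0 members were called, with 2 at an unadjusted p below 0.05 (Rab20 and Rab39). For all genes the count of 3398 became 1569 under DESeq2, 1928 with no filter, 564 against the fold of 1.2 and 1441 to 2355 with 1 library left out. For the 6 lists, 35 became 12 under DESeq2, 15 with no filter, 16 on each FPKM scale and 13 to 23 with 1 library left out. The log2 ratio of the summed Rab6 level was 0.03 (0.0318) in FPKM, -0.0017 in summed CPM and 0.0208 to 0.0427 with 1 library left out. Leaving out members with a near-identical copy removed none, so that setting tests nothing. No named gene past the threshold changed direction. Where 1 library of a genotype was left, it was assumed to vary like the other genotype. Libraries with the same replicate number showed little shared deviation (correlation 0.0067 over all 12677 tested genes, 0.052 over 8867 genes averaging at least 10 CPM). With 2 libraries a group, such a correlation cannot decide whether the numbers pair samples. With a replicate block 10 members (Rab34 was added), 3952 of all genes and 39 list genes were called. With 2 libraries a group, changes of low-count members such as Rab36 (5, 16, 5 and 13 counts) were not resolved at this depth.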
